A study of Mus musculus with 11 samples.

Results

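The probes described here were detected in fibroblasts that contain the RNA-binding protein HuR and were not detected in fibroblasts that lack it. They were chosen by their detection p-values, which set the signal of a probe against the negative controls on its array. A probe was taken when this value was at most 0.01 on all HuR WT arrays (2 of nuclear RNA, 3 of IP) and above 0.01 on all 3 nuclear RNA and all 3 IP arrays of HuR KO cells. The choice yielded 218 of the 45281 probes in the deposited table. It used the values of both cell types, so the gap between HuR WT and HuR KO at these probes is a description and was not tested.

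The cells were mouse embryonic fibroblasts (MEFs) from mid-gestation HuR WT embryos, or from HuR KO embryos, whose cells lack HuR. Nuclear extracts were made, part of each was kept as nuclear RNA, the input of the IP, and from the remainder the RNA bound to hnRNP A1 was recovered with a monoclonal antibody. In HuR WT cells 2 arrays read nuclear RNA and 3 the IP, and in HuR KO cells 3 arrays read each fraction, all of them 1-colour MouseWG-6 v2 BeadChips. The labels call the replicates independent experiments, and state that another nuclear RNA replicate of HuR WT failed quality control. All arrays of a genotype came, as far as the sources say, from the same MEF culture, so the absence of HuR and other differences between these cultures cannot be told apart. The cells received no treatment. No array of a control IP was analysed here, so IP values hold both RNA bound to hnRNP A1 and RNA carried along.

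HuR, encoded by Elavl1, binds U-rich and AU-rich elements of mRNAs and is best known for stabilising transcripts and supporting their translation. The protein is mostly nuclear and moves to the cytoplasm with its targets. hnRNP A1 is an abundant nuclear protein that coats nascent transcripts and takes part in splicing, and RIP-Chip reads the RNA of such complexes by comparing an immunoprecipitate with its input on arrays. The sources at hand give no gene or sequence for a probe identifier, so probes are given by identifier, no probe sequence is printed, and neither the loss of the HuR transcript nor the fibroblast identity of the cells could be checked.

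Each array detected 13737 to 16206 probes, and its mean deposited intensity was 165 to 347. Normalized log2 values of replicate arrays had correlations of 0.972 to 0.992 over probes in HuR WT and of 0.926 to 0.995 in HuR KO. Both arrays of HuR KO replicate 1 stood apart from replicates 2 and 3, and their deviations from the group means correlated at 0.69 over the 16045 probes detected on all arrays of at least 1 group. When both were left out of the rule, 401 probes qualified. The same removal for replicate 2 gave 244 probes and for replicate 3 gave 236. Pairs of HuR WT arrays were not left out of the rule.

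Most probes that were on in HuR WT were on in HuR KO as well. Of 12726 probes detected on all HuR WT arrays, 11028 (86.7%) were detected on all 6 HuR KO arrays and the 218 (1.71%) on none of them. The opposite pattern, detection on all HuR KO arrays and on no HuR WT array, was shown by 119 probes, or 1.01% of the 11822 detected on all HuR KO arrays. The demands differ, since HuR WT has fewer arrays than HuR KO. Nuclear RNA arrays had 16206 and 15575 probes on in HuR WT, and 14034 to 14878 in HuR KO. For the IP the ranges were 13737 to 14781 in HuR WT and 14609 to 14649 in HuR KO. The shares of 1.71% and 1.01% are therefore not read against each other. The nuclear RNA part of the rule alone was met by 805 probes, which were on in both HuR WT nuclear RNA arrays and off in all 3 of HuR KO. Of these, 159 were on in all HuR WT IP arrays but also on at least 1 HuR KO IP array. Another 204 were on in only 1 or 2 of the HuR WT IP arrays, and 224 on none.

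Single arrays held many probes just outside the group. Detection on 1 HuR KO array alone kept out 113 probes, of which KO IP replicate 1 accounted for 51 and KO nuclear RNA replicate 1 for 22. Lack of detection on 1 HuR WT array alone kept out 76, of which HuR WT IP replicate 2 accounted for 36. Detection p-values come in steps, so several probes tied nearest to the limit, and 1 of each set is named. On the HuR KO side 10 members tied just inside with 0.0107, among them ILMN_2657431 on KO nuclear RNA replicate 3 at an intensity of 32.2. Just outside lay 21 probes with 0.00962, among them ILMN_1214998 on KO IP replicate 1 at an intensity of 15.8. On the HuR WT side 2 members were just inside with 0.00962, among them ILMN_2836173 on IP replicate 1 (intensity 22.8). Just outside were 6 probes with 0.0107, among them ILMN_1218263 on IP replicate 3 (intensity 36.4). In all, 36 of the 218 had a HuR KO detection p of at most 0.02, and 27 a HuR WT detection p of at least 0.005.

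The 183 probes that only the arrays of HuR KO replicate 1 kept out were not merely at the limit there. Both arrays of that replicate detected 110 of them, its IP array alone 51 and its nuclear RNA array alone 22. Their median log2 level was 6.69 in HuR WT nuclear RNA, 6.12 on KO nuclear RNA replicate 1 and 4.76 on the mean of KO nuclear RNA replicates 2 and 3. On KO nuclear RNA replicate 1, 101 of the 183 lay within 2-fold of the HuR WT mean, and 59 lay above it. What sets this replicate apart was not tested.

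The signal of the 218 probes was not detected in HuR KO on any array, as the rule required. Their median deposited intensity was 108 and 91.4 on the HuR WT nuclear RNA arrays, and 68.4, 112 and 111 on the HuR WT IP arrays. It was 5.92, 6.96 and 4.46 on the HuR KO nuclear RNA arrays and 3.61, 3.60 and 3.53 on the HuR KO IP arrays. These HuR KO values were above those of the 25907 probes that no array detected, whose medians on the HuR KO arrays lay between -2.74 and -0.33. Below 0 were 31.04% of the members' 1308 HuR KO values, against 57.5% of the HuR KO values of the undetected probes. The mean HuR KO intensity was above 0 at 169 of the 218. Not detected therefore describes the threshold of 0.01: at 109 members every HuR KO detection p was above 0.05, at 53 it was at most 0.05 on 1 array and at 56 on 2 to 5 arrays.

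**Figure D1:**
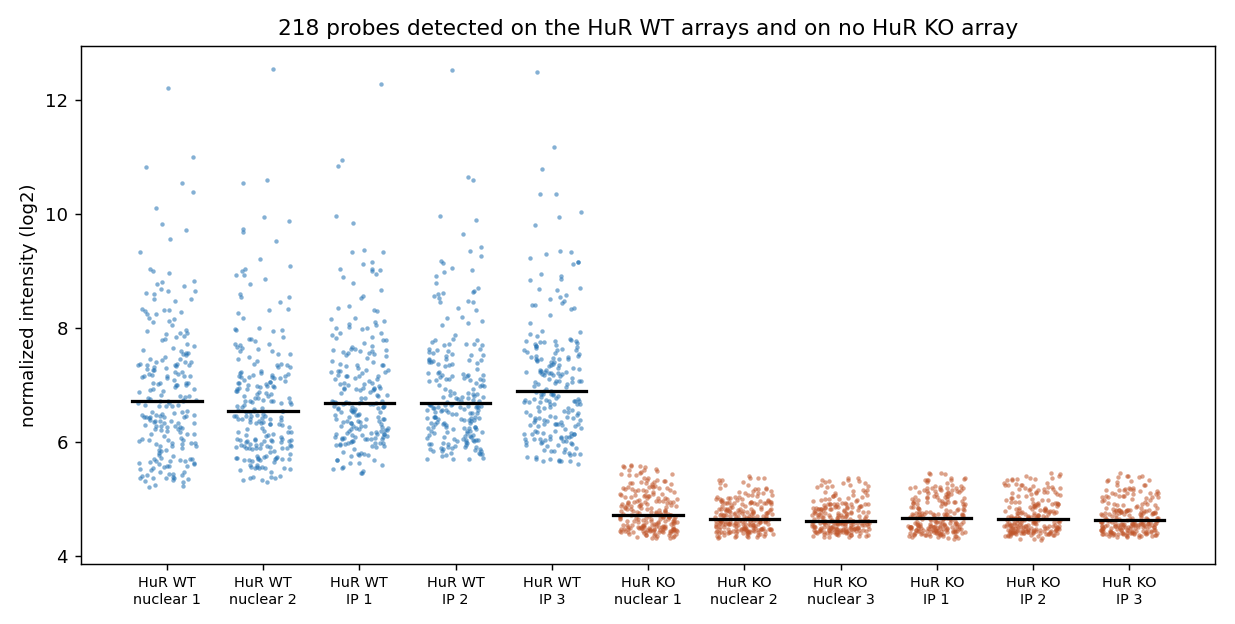
Normalized log2 intensity (y axis) of the 218 probes on each of the 11 arrays (x axis), 1 point per probe and a black line at the median, with HuR WT in blue and HuR KO in orange. The medians lie between 6.54 and 6.89 on the HuR WT arrays and between 4.61 and 4.71 on the HuR KO arrays, a gap that the choice of the probes fixes, and the HuR WT points reach down to the level at which detection begins.

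Because the HuR KO signals were not detected, the size of the gap is given as a bound. For it, each HuR KO array counts with the lowest signal it could detect, or with the signal of the probe where that is higher. Set against the HuR WT mean, the median member was at least 2.37-fold lower in HuR KO nuclear RNA (quartiles 1.45 and 3.68) and at least 2.43-fold lower in the HuR KO IP (quartiles 1.73 and 3.96). The nuclear RNA bound exceeded 2-fold at 124 members, 4-fold at 49 and 10-fold at 14. In the IP these counts were 145, 51 and 16. Both bounds passed 4-fold at 37 members and 10-fold at 12. At 8 members the nuclear RNA bound did not exceed 1, so no fold is given for them.

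The group was dim. In HuR WT nuclear RNA its median log2 level was 6.72 (quartiles 6.01 and 7.35, range 5.25 to 12.38), against 8.13 (6.90 and 9.56) for all 12726 probes detected on the HuR WT arrays. In the HuR WT IP the medians were 6.75 (quartiles 6.25 and 7.45) and 8.13 (6.94 and 9.55). A probe's intensity depends on its sequence as well as on the RNA, so these levels do not rank transcripts by abundance. When the 12726 probes were split into 4 equal bins by their mean level in the 2 HuR WT fractions, 135 of the 218 (61.9%) fell in the dimmest bin and 6 (2.75%) in the brightest. A low level is tied to the rule, since a dim signal is closer to the limit of detection. The 119 probes detected in HuR KO cells only were dim likewise, with a median log2 level of 6.68 in HuR KO nuclear RNA against 8.30 for all probes detected on the HuR KO arrays.

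The brightest members were far above background in HuR WT. ILMN_2704576 had log2 levels of 12.22 and 12.54 in nuclear RNA and 12.28, 12.54 and 12.49 in the IP. On the 6 HuR KO arrays the same probe lay between 4.47 and 5.17, with a lowest detection p of 0.0417, and the bound of its fall in the IP was at least 126-fold. ILMN_2965669 followed with 10.998 and 10.60 in nuclear RNA and 10.96, 10.60 and 10.80 in the IP, and lay between 4.31 and 5.35 in HuR KO. Its bound was at least 40.1-fold in nuclear RNA and 39.9-fold in the IP. At both probes nuclear RNA and IP overlapped in HuR WT, with IP minus nuclear RNA differences of 0.05 (standard error 0.22) and -0.02 (standard error 0.28) on the log2 scale. The 6 members in the brightest bin had median bounds of at least 31.2-fold in nuclear RNA and 30.3-fold in the IP. A difference between IP and nuclear RNA was called at 0 of the 6 by limma (2 at an unadjusted p under 0.05) and at 0 by the methods' t-test, in a bin where 7.32% of all detected probes were called higher and 7.76% lower. So few members cannot be set against these shares.

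The rule did not compare IP with nuclear RNA within HuR WT cells, and this difference was tested. It is not free of the rule near background, where detection was required on every HuR WT array and began at log2 levels of 5.18 and 5.28 in nuclear RNA and of 5.43 to 5.67 in the IP, so that a member at the limit in nuclear RNA had to be brighter in the IP. All 218 entered the test, since detection on every HuR WT array also met the filter on low values. The estimate of the spread in this test also drew on the HuR KO arrays, where the rule kept these probes undetected. Among the 218, 16 (7.34%) were higher in the HuR WT IP than in HuR WT nuclear RNA and 7 (3.21%) were lower (adjusted p under 0.05 from limma and over 2-fold). Of all probes detected on the HuR WT arrays 7.06% were called higher and 6.59% lower. Over all 16045 probes tested these percentages were 6.06% and 7.25%. When the HuR WT arrays were normalized and fitted alone, the same 16 and the same 7 members were called. Of all detected probes 7.57% were called higher and 7.04% lower in that fit. In both fits the share of members called higher was near that of all detected probes. With an offset of 50 it was 2.29% against 4.70%, and without background correction 0.459% against 7.62%. The spread in the fits with these 2 settings also drew on the HuR KO arrays. The share called lower was below that of the detected probes, but not without HuR WT nuclear RNA replicate 2 (7.34% against 6.99%). The calls themselves depended on the processing. With an offset of 50, 5 members were called higher and 3 lower, without background correction 1 and 2, and with the methods' t-test 7 and 1, and no member was called in every setting tried. In the dimmest bin 5.03% of the detected probes were called higher and 2.23% lower, and of the 135 members in that bin 10 were called higher and 4 lower. In the next bin 6 and 2 of 56 members were called, against 7.80% and 7.86% of the detected probes. Among the 27 members of the 2 brighter bins, 0 were called higher and 1 lower by limma (5 were higher at an unadjusted p under 0.05), and the methods' t-test likewise called 0 higher. Of all detected probes in these bins 8.11% and 7.32% were called higher and 8.52% and 7.76% lower, so few calls would fall among 27 probes at these shares.

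Most members lay within 2-fold between IP and nuclear RNA, as most detected probes did. The median IP minus nuclear RNA difference was 0.20 on the log2 scale, or 1.15-fold, with quartiles of -0.18 and 0.56 and a range of -1.45 to 2.14. Over all probes detected on the HuR WT arrays the median was 0.06, with quartiles of -0.41 and 0.52. Within 2-fold lay 191 members (87.6%) and 84.8% of the detected probes. The difference was above 0 at 133 members (61.0%), against 53.7%. In the dimmest bin, which held most members, the median was 0.26 at members and 0.17 at all detected probes. The sign of the members' median depended on the scaling: with quantile normalization within each fraction, which lowered the median of all probes tested from 0.00 to -0.32, it was -0.17, and 6 members were called higher and 22 lower. With all arrays normalized together, every HuR WT IP array lay above both nuclear RNA arrays at 75 members (34.4%), against 33.7% of the detected probes. Every IP array lay below both at 30 members (13.8%), against 27.5%. These shares were not matched for level. In the dimmest bin 2.23% of the detected probes were called lower, against 6.59% over all levels.

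**Figure D2:**
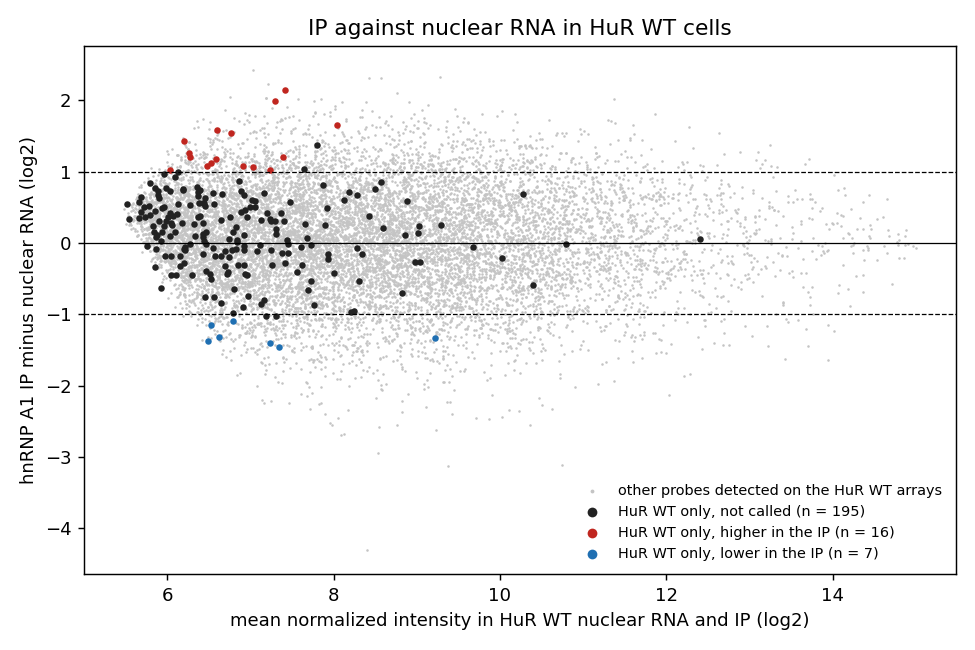
Difference between hnRNP A1 IP and nuclear RNA in HuR WT cells (y axis, log2) against the mean level of both (x axis, log2), with the 218 probes in black (195 not called), red (16 higher in the IP) and blue (7 lower), and the other probes detected on the HuR WT arrays in grey. Dashed lines mark 2-fold, and most of the 218 lie between them at the dim end.

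The 16 members higher in the IP had a median ratio of 2.30-fold (range 2.03 to 4.40, adjusted p from 4.71e-04 to 0.0196 in limma). Their median log2 level was 6.002 in nuclear RNA (range 5.49 to 7.22) and 7.42 in the IP. At all 16 each IP array lay above both nuclear RNA arrays, which the call itself makes likely. Their signal in HuR KO was bounded mainly from the IP. The median bound there was at least 3.89-fold below HuR WT, against at least 1.44-fold in nuclear RNA. Their choice by a brighter HuR WT IP largely sets this order. The highest ratio was at ILMN_2691261, with log2 levels of 6.48 and 6.22 in nuclear RNA and 8.53, 8.46 and 8.47 in the IP. Its difference was 2.14 on the log2 scale, or 4.40-fold (standard error 0.21, adjusted p = 4.71e-04 from limma), and the 3 IP arrays lay close together. ILMN_1259499 had 5.90 and 6.70 in nuclear RNA and 8.66, 8.52 and 7.68 in the IP. There the IP was 3.97-fold higher, a log2 difference of 1.99 (standard error 0.31, adjusted p = 0.00175 from limma), with a wider spread in both fractions.

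The 7 members lower in the IP had a median ratio of nuclear RNA to IP of 2.52-fold (range 2.14 to 2.74, adjusted p from 0.00123 to 0.00962 in limma). Their median log2 level was 7.34 in nuclear RNA and 6.25 in the IP. At all 7 the arrays of the fractions did not overlap, which the call again makes likely. ILMN_2618714 had 8.33 and 7.81 in nuclear RNA and 6.15, 6.43 and 7.26 in the IP. It was 2.74-fold lower in the IP, a log2 difference of -1.45 (standard error 0.31, adjusted p = 0.00671 from limma). ILMN_1245710 had 8.15 and 7.72 in nuclear RNA and 6.05, 6.57 and 6.98 in the IP, a log2 difference of -1.40 (standard error 0.28, adjusted p = 0.00504 from limma). At both probes IP replicate 3 was the brightest IP array and nuclear RNA replicate 1 the brighter nuclear RNA array. The number of lower members depended on single arrays. Without nuclear RNA replicate 2 of HuR WT it was 16 (7.34%, against 6.99% of all detected probes). Without IP replicate 3 it was 11 (5.05% against 7.14%), and without nuclear RNA replicate 1 again 7 (3.21% against 4.67%). Only 4 of these last 7 were among the 7 called with all arrays. Of the 7 lower members 3 were called whichever single array was left out. Of the 16 higher members 9 were. This was not counted over all detected probes, so it is not read as a trait of the members.

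A further 4 members differed by over 2-fold without passing the test, with adjusted p of 0.0722 to 0.223 from limma. The widest was ILMN_1259967, whose log2 levels were 5.97 and 8.26 in nuclear RNA and 9.34, 9.35 and 6.76 in the IP. Its dim arrays were nuclear RNA replicate 1 and IP replicate 3.

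The 218 probes varied more between HuR WT replicates than other detected probes did. The median SD of the 3 IP arrays was 0.23 on the log2 scale, against 0.18 for all probes detected on the HuR WT arrays. The median size of the difference between the 2 nuclear RNA arrays was 0.39, against 0.28. The order was the same within each of the 4 bins of level. In the dimmest bin the nuclear RNA differences had a median size of 0.31 at members and 0.28 at all detected probes, and in the next brighter bin 0.51 and 0.30. For the IP the SDs were 0.22 and 0.21 in the dimmest bin and 0.26 and 0.20 in the next.

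The spread mostly had the same direction in both fractions. Across the 218 probes the difference between nuclear RNA replicates 1 and 2 correlated at 0.74 with the difference between IP replicate 3 and the mean of IP replicates 1 and 2. Over all 12726 detected probes the correlation was 0.47. With IP replicate 1 or 2 set against the other IP replicates instead, it was -0.60 and -0.70 at members, and -0.28 and -0.47 at all detected probes. For IP replicate 3 it was 0.68, 0.77 and 0.90 at members from the dimmest bin up. At the 6 members of the brightest bin it was -0.21. All detected probes had 0.42 to 0.51 in the 4 bins. Probes share these 5 arrays and are not independent replicates, so the values are a description. Among the members 10 (4.59%) were more than 2-fold brighter on nuclear RNA replicate 1 than on replicate 2, and also on IP replicate 3 than on the mean of the other IP replicates, against 71 (0.558%) of the detected probes. The reverse held at 2 members (0.917%), against 69 probes (0.542%), and opposite differences of that size at 0. Without these 12 the correlation over the other 206 members was 0.59. The cause of this common direction was not tested.

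The probe with the widest such difference, singled out after its values were seen, was ILMN_1253178. Its log2 levels were 10.55 and 7.67 in nuclear RNA and 7.62, 7.72 and 11.18 in the IP. Nuclear RNA replicate 1 and IP replicate 3 were thus high together and the other HuR WT arrays low together, while the lowest HuR KO detection p was 0.165. At the 10 members with this pattern the nuclear RNA difference ran from 1.07 to 2.89 and the IP difference from 1.02 to 3.51 on the log2 scale. The choice of these 12 by a wide spread within both fractions makes a call between the fractions unlikely, so no test between fractions is read at them. Leaving out nuclear RNA replicate 1 and IP replicate 3 together gave 14 members higher in the IP (6.42%, against 3.83% of all detected probes). It gave 8 lower (3.67% against 4.27%) and a median difference of 0.18. With all arrays, 11 of the 14 and 6 of the 8 were called as well.

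**Figure D3:**
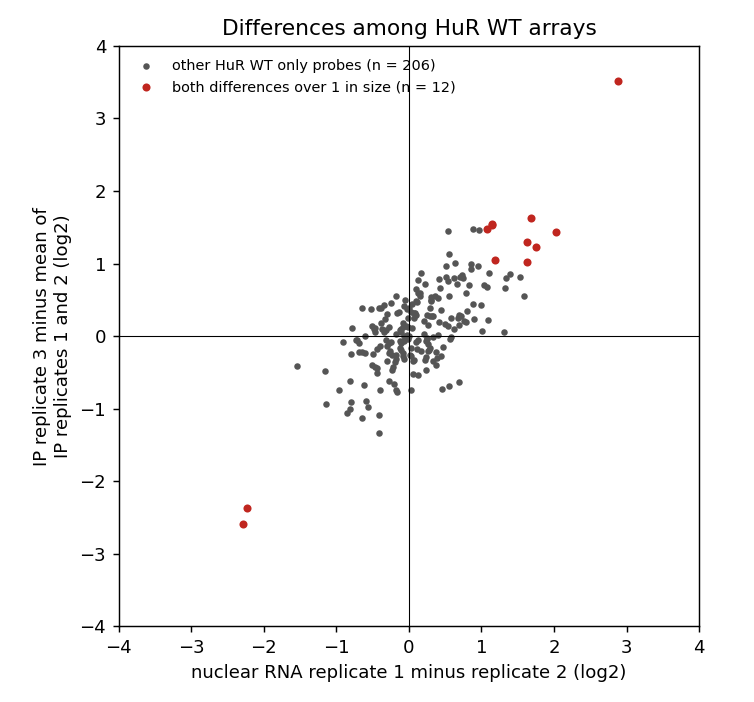
Difference between HuR WT nuclear RNA replicates 1 and 2 (x axis, log2) against the difference between HuR WT IP replicate 3 and the mean of IP replicates 1 and 2 (y axis, log2), 1 point per member. The points run from lower left to upper right (correlation 0.74 over the 218), and the 12 probes in red differ by more than 1 on both axes, 10 of them at the upper right.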

How the data were processed

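The deposited values were a detection p-value and, before any normalization across arrays, an intensity per probe. Between 31.6% and 36.5% of the intensities of an array were below 0, as after background subtraction by software that the sources do not name. The detection p-values of HuR KO nuclear RNA replicate 3 carry the header of replicate 1 and were assigned by their position. Per the methods, the authors corrected background, normalized by quantiles and took log2.

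Here R 4.3.3 was used with the packages limma 3.58.1 and statmod 1.5.0. The background was corrected with a normal-exponential model from the detection p-values (offset 16). The 11 arrays were then quantile normalized together, and log2 was taken. The offset raises low values, so folds near background are understated. The 16045 probes detected (p at most 0.01) on all arrays of at least 1 group were kept. The IP of HuR WT cells was compared with their nuclear RNA in 1 limma model of the 4 group means. The 4 groups shared 1 estimate of the spread per probe. P-values had Benjamini-Hochberg adjustment over all probes kept, and calls required an adjusted p under 0.05 and over 2-fold. The model took the fractions as unpaired, although each nuclear RNA sample was part of an extract also used for IP. Its standard errors therefore leave out deviations that the fractions share. The number of arrays limits the precision. Chip positions were not given, so no batch was fitted.

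The members, lists and rules were chosen with earlier results of these data known. The rule named members by level (highest), by called IP to nuclear RNA ratio with arrays that do not overlap (highest and lowest), by gene lists, and by nearness to the threshold. Without gene names the gene lists, the cell type markers and the HuR check were not used, and at most 2 probes per kind are named. Alternatives were the background correction, the scaling, the filter, the fit, the detection thresholds and leaving out each array.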

Additional observations from a re-analysis of the deposited data

How the results depend on the processing

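The counts of members higher and lower in the IP (16 and 7) varied with the setting. With the HuR WT arrays alone they stayed 16 and 7, with 7.57% and 7.04% of all probes detected in HuR WT called. They were 5 and 3 with an offset of 50 (4.70% and 4.998% of all probes detected in HuR WT were called there), 1 and 2 without background correction (7.62% and 6.80%), 6 and 22 when quantiles were normalized in each fraction alone (2.68% and 14.3%), 7 and 1 with the methods' t-test (3.54% and 2.78%), 17 and 13 with array weights (8.35% and 8.02%), and 11 and 8 with median scaling (8.05% and 5.84%). With the replicate block they were 19 and 13 (8.64% and 8.42%), and the median difference was 0.15. The numbers were not taken to pair the HuR WT arrays, since the deviations of same-numbered arrays correlated at -0.27 and 0.44 over the probes kept. No member was called in every setting. Leaving out each array in turn gave 14 to 18 higher and 7 to 16 lower members. Of all probes detected in HuR WT, 4.70% to 7.94% were called higher and 4.67% to 7.14% lower in these fits. Each fit called at least 12 of the 16 higher and 4 of the 7 lower members again. The median difference was 0.15 to 0.23, and 222 to 269 probes met the rule. The median difference (0.20) turned to -0.17 when fractions were quantile normalized separately. The median level in nuclear RNA (6.72) was 7.13 with an offset of 50, 6.48 without background correction and 6.93 when fractions were quantile normalized separately. The median bound in nuclear RNA (2.37-fold) was 1.78-fold with an offset of 50, 3.12-fold without background correction and 2.64-fold with median scaling. The number of members was 109 when all HuR KO detection p-values had to exceed 0.05, 179 with 0.05 as the threshold for both cell types and 242 with 0.001. It was 401 without both arrays of HuR KO replicate 1, an alternative chosen after seeing the data, like the removal of HuR WT nuclear RNA replicate 1 with IP replicate 3. The causes of these shifts were not tested. With nuclear RNA of HuR WT on 2 arrays and signals near background at most members, small differences could not be detected.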
